A study of Homo sapiens with 6 samples.

Results

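The genes described here are the matrix metalloproteinases (MMP), the ADAM and ADAMTS metalloproteinases and the tissue inhibitors of metalloproteinases (TIMP). Of 58735 genes in the expression table, 66 protein-coding genes carried a symbol made of 1 of these 4 prefixes and a number: 23 MMP, 20 ADAM, 19 ADAMTS and 4 TIMP genes. They were taken by symbol and not by expression level, but the families were picked with earlier results of these data known. RNA-seq was done on HGC-27, an established line of human gastric carcinoma cells, in 3 libraries with a control hairpin (shNC) and 3 with a hairpin against ACAT2 (shACAT2). ACAT2 encodes a cytosolic acetyl-CoA acetyltransferase of the mevalonate route. The hairpins were expressed from the puromycin-resistance vectors pSIH-H1-Puro-shNC and pSIH-H1-Puro-shACAT2. Both groups were grown in medium with serum, transfected for 24 hours and selected with puromycin for 7 days. The labels give the genotype of the shNC cells as WT and that of the shACAT2 cells as ACAT2 knockdown. They do not say which hairpin against ACAT2 was used, and the cells were selected populations of 1 line. The study had examined migration, invasion and invadopodia in these cells, and the RNA-seq comparison asks which transcripts differ after ACAT2 knockdown.

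MMPs are zinc endopeptidases that cut collagens and other matrix proteins, and the membrane-type MMPs do this at the cell surface. ADAMs are mostly membrane-anchored sheddases that release the outer parts of ligands and receptors, while ADAMTS enzymes are secreted and process procollagens, proteoglycans and microfibrils. TIMPs occupy the active site of these enzymes. TIMP3 has the widest range and stays bound to the matrix, TIMP2 also joins MMP14 in activating pro-MMP2 at the cell surface, and TIMP1 is a weak inhibitor of the membrane-type MMPs. Many of these proteases are made as zymogens and are controlled after translation, so that transcript levels do not measure activity.

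Promoters of TIMP3, MMP14 and ADAMTS10 are shown because these genes stand for an inhibitor, a membrane-anchored protease and a secreted protease that had high or clearly separated values. Each sequence covers 250 to 31 bases before the RefSeq transcript start (build GRCh38.p14), written 5′ to 3′ on the strand of the gene. TIMP3 lies at chr22:32801455-32801674 on the plus strand, MMP14 at chr14:22836335-22836554 on the plus strand and ADAMTS10 at chr19:8610746-8610965 on the minus strand. Capitals mark matches of the GC box GGGCGG and of the TATA box TATAAA on either strand.
TIMP3: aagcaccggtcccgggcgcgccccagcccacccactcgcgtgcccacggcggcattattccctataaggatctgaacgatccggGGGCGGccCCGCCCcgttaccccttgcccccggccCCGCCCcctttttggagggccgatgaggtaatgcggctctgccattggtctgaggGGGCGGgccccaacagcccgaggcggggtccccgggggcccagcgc
MMP14: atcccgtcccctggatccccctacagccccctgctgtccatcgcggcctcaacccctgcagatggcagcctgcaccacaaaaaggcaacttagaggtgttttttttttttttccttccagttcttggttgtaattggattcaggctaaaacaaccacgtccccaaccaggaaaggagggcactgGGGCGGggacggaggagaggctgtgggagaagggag
ADAMTS10: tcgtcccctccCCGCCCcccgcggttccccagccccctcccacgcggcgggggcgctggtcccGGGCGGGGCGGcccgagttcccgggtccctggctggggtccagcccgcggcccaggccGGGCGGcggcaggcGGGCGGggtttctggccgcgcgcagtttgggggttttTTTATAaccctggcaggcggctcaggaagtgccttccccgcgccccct
TIMP3 held 4 GC boxes, MMP14 held 1, and ADAMTS10 held 5 together with 1 TATA box on the opposite strand. An AP-1 site (TGANTCA) or a TEAD site (GGAATG) was found in none of the 3 windows. A RefSeq promoter was matched for 39 of the 66 genes and for 16 of the 24 genes tested for expression. Of these 16, a GC box was present in 15, a TEAD site in 1 (ADAM17), a TATA box in 1 and an AP-1 site in 0. Among 27305 RefSeq promoters cut to the same window, 38.6% held a GC box, 10.7% a TEAD site, 8.31% a TATA box and 6.03% an AP-1 site. The 16 genes had passed an expression filter and the 27305 promoters had not been filtered, so the sets are unlike. No trait of these families is read from the contrast. These are matches of letters in a short window, and no binding was measured.

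Each library held 14086416 to 16067486 fragments on genes. ACAT2 itself fell from 12.9 ± 1.25 to 5.90 ± 0.388 FPKM (SD, n = 3 libraries per group, in fragments scaled to gene length and library size), a log2 difference of −1.01 (SE 0.10, limma adjusted p = 0.0059, or 0.0512 without shNC-3). The library shACAT2-3 stood apart at low counts. It alone had a fragment on 7477 genes, against 416 to 657 such genes in the other libraries, and it carried 0.778 fragments per kilobase on autosomal genes that were silent elsewhere, against 0.0508 to 0.0809. Of the defining markers, 0 of 5 epithelial genes (EPCAM, CDH1, KRT8, KRT18 and KRT19) and 0 of 6 gastric mucosa genes reached 1 FPKM in every library, with TFF1 and GKN1 at 0 throughout, while 3 of 4 mesenchymal and 5 of 6 fibroblast genes did. Endothelial and leukocyte markers, 3 and 4 genes, summed to at most 0.373 and 0.315 FPKM in any library. Both of these maxima were in shACAT2-3, and in shNC the sums reached at most 0.0237 and 0.0726 FPKM.

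ACAT2 knockdown went with higher transcripts of the inhibitors TIMP3 and TIMP2 and of the secreted protease ADAMTS10, and no gene of the 4 families passed the test in the lower direction. To be tested, a gene had to average 1 FPKM or more among the shNC or the shACAT2 libraries, which left 13832 genes. They were compared with limma after adding 1 to the FPKM and taking log2, and p-values were adjusted over all of them. Of the 66 genes, 24 entered it: 3 TIMP, 4 MMP, 7 ADAM and 10 ADAMTS genes. The other 42 had lower levels and are given as fragments. Of the 24, 3 were called higher and 0 lower at an adjusted p under 0.05, where 5.10% of all genes tested were called, 3.30% higher and 1.81% lower. With scaling to the upper quartile the calls over all genes were 436 higher and 365 lower in place of 456 and 250, and the same number of family genes, 3 and 0, was called. At an unadjusted p under 0.05, 7 of the 24 were higher and 0 lower, against 12.8% and 10.7% of all genes, and with either other scaling 7 were higher and 1, MMP15, lower. The median log2 difference was 0.094 over the 24 and 0.016 over all genes. By family it was 0.89 for the TIMPs, 0.035 for the MMPs, −0.0092 for the ADAMs and 0.035 for the ADAMTS genes. ADAMTS4 was the only gene that entered through 1 group alone (0.968 FPKM in shNC and 1.13 in shACAT2).

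**Figure D1:**
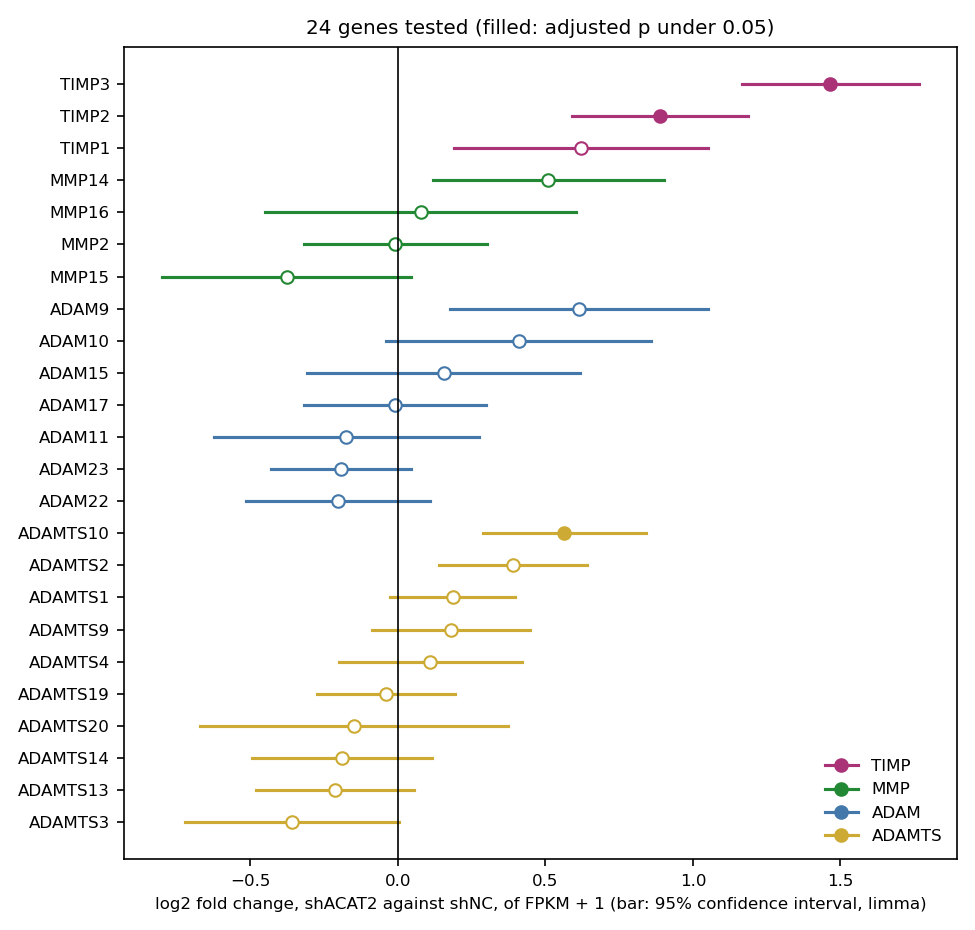
Log2 fold change of FPKM + 1 (horizontal axis, shACAT2 against shNC) with its 95% confidence interval from limma for the 24 genes tested, coloured by family, with filled points at an adjusted p under 0.05. The 3 TIMPs lie at 0.62 to 1.47, and the filled points are TIMP3, TIMP2 and ADAMTS10.

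Among the inhibitors, TIMP3 (ENSG00000100234, chr22:32801701-32863043, plus strand) changed most. Its level was 13.0, 10.1 and 10.6 FPKM in shNC-1, shNC-2 and shNC-3, and 36.1, 30.8 and 31.3 FPKM in shACAT2-1, shACAT2-2 and shACAT2-3. The groups were far apart, and 756 to 918 fragments in shNC and 2161 to 2523 in shACAT2 lay behind these values. The mean went from 11.2 ± 1.56 to 32.7 ± 2.93 FPKM (SD, n = 3), 2.91-fold, with a log2 difference of 1.47 (SE 0.13, 95% interval 1.17 to 1.77, limma adjusted p = 0.0038). With 3 libraries against 3, an exact two-sided permutation test gave 0.1, the smallest p it allows. TIMP3 kept its call in all 16 alternatives tried. It was also the 1 family gene past an absolute log2 difference of 1 with an unadjusted limma p under 0.05, where 0.983% of all genes were higher by that rule. TIMP3 lies inside the gene SYN3 on the opposite strand and shares 0 exon bases with it.

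TIMP2 (ENSG00000035862, chr17:78852977-78925387, minus strand) showed a smaller rise. Its level was 18.9, 15.9 and 16.0 FPKM in the shNC libraries and 35.02, 28.1 and 33.5 FPKM in the shACAT2 libraries, again without overlap. The mean rose 1.90-fold, from 16.9 ± 1.73 to 32.2 ± 3.62 FPKM (SD, n = 3), with a log2 difference of 0.89 (SE 0.13, limma adjusted p = 0.015). The call was lost without shNC-2 (adjusted p = 0.0963) and without shNC-3 (0.101), at log2 differences of 0.85 each. Of the exon bases of TIMP2, 6.52% are shared with an antisense gene, AC022966.1, and 3.52% with CEP295NL on the same strand, and the strand setting of the counting is not given in the sources used here.

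TIMP1 (ENSG00000102265, chrX:47582313-47586789, plus strand) did not pass the test. It stood at 13.7, 12.8 and 13.1 FPKM in shNC and at 27.9, 19.5 and 16.6 FPKM in shACAT2. All 3 shACAT2 values lay above all 3 shNC values, but they ranged far more widely than the controls. The log2 difference was 0.62 (SE 0.18, limma adjusted p = 0.102), and it passed only without shACAT2-3 (0.78, adjusted p = 0.048). TIMP4 had 0 fragments in shNC and 1, 0 and 5 in shACAT2-1, shACAT2-2 and shACAT2-3.

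**Figure D2:**
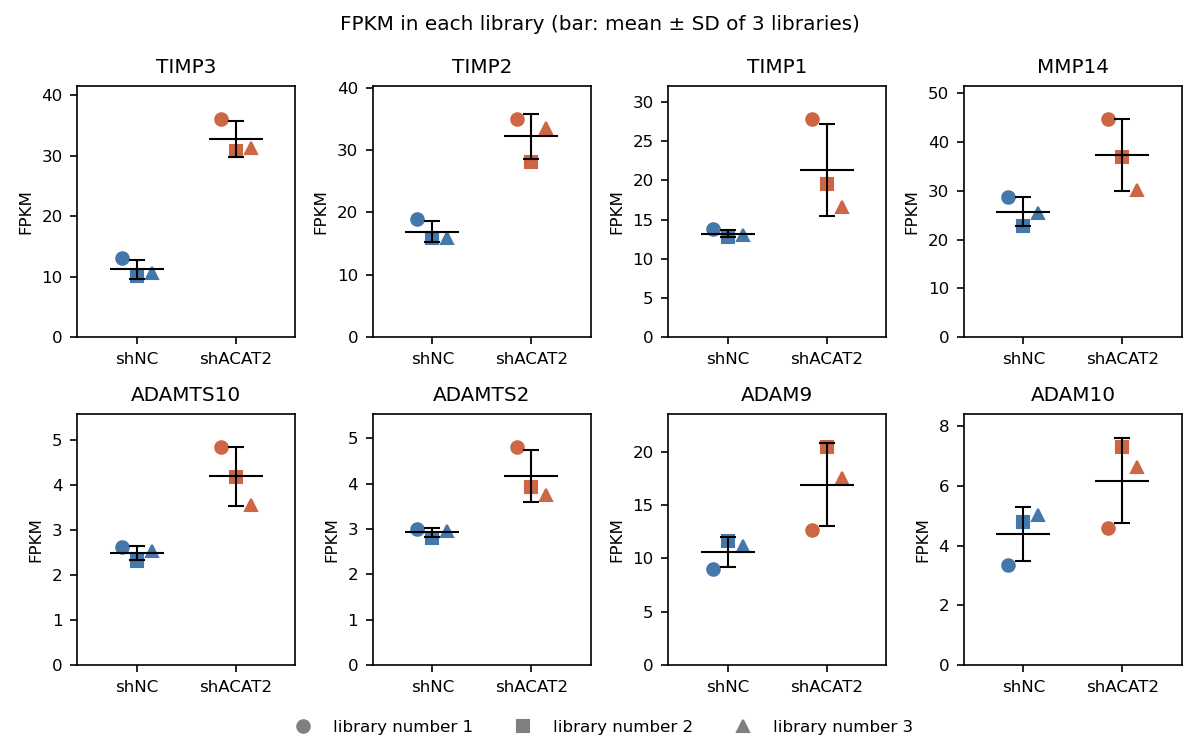
FPKM (vertical axes, from 0) of 8 genes in each shNC and shACAT2 library, with the marker shape giving the library number and bars the mean ± SD of 3 libraries. TIMP3, TIMP2 and ADAMTS10 form separate groups, whereas for ADAM10 shACAT2-1 falls among the shNC libraries.

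Of the fibroblast markers, 3 of 5 tested were called higher, as TIMP3 and TIMP2 were, where 3.30% of all genes tested were called higher. The 6 fibroblast genes together summed to 304 to 338 FPKM in shNC and 442 to 535 in shACAT2, with COL1A1 (log2 difference 0.97, limma adjusted p = 0.0136), DCN (0.54, 0.0246) and LUM (0.64, 0.0423) called higher. Each of these calls was lost when any shNC library or shACAT2-2 was left out, and LUM also without shACAT2-3, with adjusted p of up to 0.0983 for COL1A1, 0.140 for DCN and 0.155 for LUM. The 4 mesenchymal genes summed to 253 to 298 and 349 to 467 FPKM, mostly VIM, with 0 of 3 tested called in either direction (VIM log2 difference 0.62, limma adjusted p = 0.0634). With the library number as a block, COL1A2 (adjusted p = 0.0432), COL3A1 (0.0345) and VIM (0.0265) were called higher too, and COL1A1, DCN and LUM stayed called. The 5 epithelial genes summed to 0.505 to 0.830 FPKM in shNC and 1.44 to 2.22 FPKM in shACAT2. Of these only CDH1 separated the groups, with means of 0.161 FPKM in shNC and 0.863 in shACAT2, under the filter. EPCAM, KRT8, KRT18 and KRT19 overlapped. PTPRC, CD3E, CD68, MS4A1 and the endothelial genes stayed near 0, as given above. In RNA of a whole culture, a change in the share of cells that make a transcript and a change in its amount per cell cannot be told apart, and the part of these markers in the TIMP difference was not tested.

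Of the MMPs, only the membrane-type genes MMP14, MMP15 and MMP16 and the gelatinase MMP2 were at or above 1 FPKM, and none of the 4 was called. MMP14 (ENSG00000157227, chr14:22836557-22849027, plus strand), the major surface collagenase, stood at 28.8, 22.9 and 25.5 FPKM in shNC and at 44.8, 37.1 and 30.2 FPKM in shACAT2. The groups did not overlap, with shACAT2-3 close to shNC-1. The log2 difference was 0.51 (SE 0.17, 95% interval 0.12 to 0.90, limma adjusted p = 0.127). MMP15, a second membrane-type enzyme, gave 14.8, 12.4 and 12.9 FPKM in shNC and 13.0, 9.97 and 7.74 FPKM in shACAT2. Its groups overlapped at shACAT2-1, and the log2 difference was −0.38 (SE 0.18, limma adjusted p = 0.257). MMP16 spread from 4.71 to 6.56 FPKM in shNC and from 4.16 to 7.98 FPKM in shACAT2. MMP2, which MMP14 and TIMP2 activate together, held 2.92 to 3.71 FPKM in shNC and 2.76 to 3.86 FPKM in shACAT2. Its log2 difference of −0.01 had a 95% interval of −0.32 to 0.30, so that a change of up to that size could not be seen here.

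The ratios of inhibitor to enzyme were computed within each library and carry no test. TIMP2 per MMP14, in FPKM, was 0.657, 0.696 and 0.626 in shNC and 0.782, 0.759 and 1.11 in shACAT2. The groups were separate, with shACAT2-3 the highest. The summed FPKM of the 4 TIMPs was 45.7, 38.8 and 39.6 in shNC and 99.0, 78.5 and 81.6 in shACAT2, and that of the 23 MMPs was 53.3, 45.7 and 49.2 against 67.3, 58.9 and 51.2. Transcripts of inhibitors thus numbered 0.837 ± 0.0284 per MMP transcript, in length-scaled units, in shNC and 1.47 ± 0.131 in shACAT2 (SD, n = 3). The ADAM sums, 65.8 to 68.8 in shNC and 68.8 to 83.5 in shACAT2, met at shNC-1 and shACAT2-3, and the ADAMTS sums were 28.97 to 30.1 and 30.6 to 33.2.

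**Figure D3:**
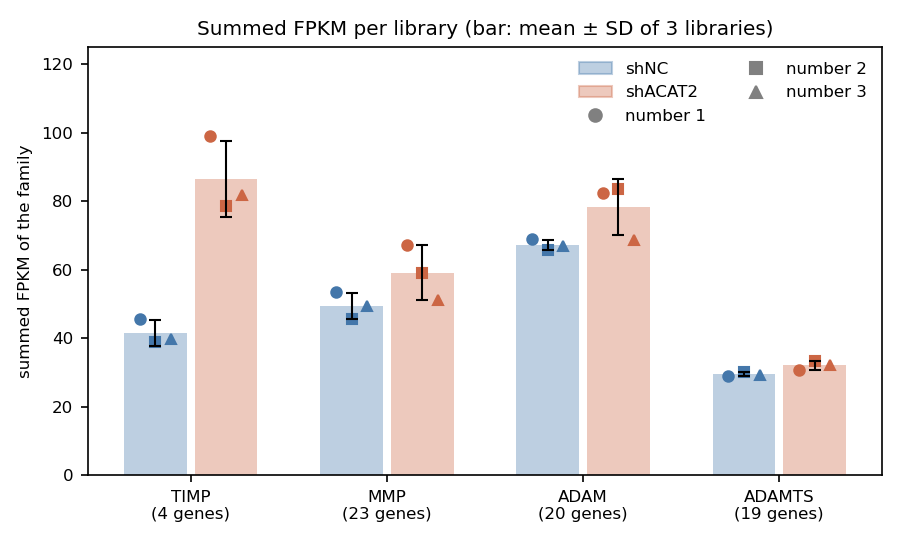
Summed FPKM (vertical axis, from 0) of the 4 TIMP, 23 MMP, 20 ADAM and 19 ADAMTS genes, with points for libraries, bars for the mean of 3 libraries and whiskers for the SD. The TIMP sums were 38.8 to 45.7 in shNC and 78.5 to 99.0 in shACAT2, the widest gap of the 4 families.

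None of the 7 ADAM genes tested was called. ADAM15, which joins protease and integrin-binding domains, had the highest mean of all 66 genes over the 6 libraries, 37.2 FPKM, followed by MMP14 at 31.5, TIMP2 at 24.6, TIMP3 at 21.99 and TIMP1 at 17.3 FPKM. The ADAM15 libraries read 38.7, 32.4 and 33.4 FPKM in shNC and 49.9, 39.7 and 29.3 FPKM in shACAT2, which included both the highest and the lowest of the 6. ADAM9 (ENSG00000168615), a sheddase, read 8.96, 11.7 and 11.1 FPKM in shNC and 12.7, 20.5 and 17.6 FPKM in shACAT2. Its groups did not overlap, and the log2 difference was 0.61 (SE 0.18, limma adjusted p = 0.108). ADAM10 (ENSG00000137845, chr15:58588807-58749978, minus strand), the sheddase of Notch and of many adhesion proteins, read 3.33, 4.80 and 5.02 FPKM in shNC and 4.58, 7.32 and 6.63 FPKM in shACAT2. Those groups overlapped at shACAT2-1, with a log2 difference of 0.41 (SE 0.19, limma adjusted p = 0.250).

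Deviations from the group means correlated at 0.445 for libraries of number 1, and at 0.126 and 0.171 for numbers 2 and 3. However, shNC-2 with shACAT2-3 (0.198) and shNC-3 with shACAT2-2 (0.141) correlated as well. The pairing of numbers 2 and 3 is therefore not settled. A fit with the number as a block was also made, and it rests on that pairing. ADAM9 was 1.42-, 1.76- and 1.58-fold higher and ADAM10 1.37-, 1.53- and 1.32-fold higher in shACAT2 than in shNC of the same number. In the blocked fit both passed, with limma adjusted p of 0.0259 for ADAM9 and 0.0358 for ADAM10, so that 5 of the 24 were called higher and 0 lower, where 7.67% and 4.81% of all genes were. MMP14 (adjusted p = 0.0523), TIMP1 (0.0556) and ADAMTS2 (0.0514) lay just outside the threshold in that fit.

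ADAM17, the sheddase of TNF and of EGF receptor ligands, stood at 3.08, 3.32 and 3.26 FPKM in shNC and at 2.49, 3.65 and 3.53 FPKM in shACAT2. Its log2 difference was −0.01 (95% interval −0.32 to 0.30, limma adjusted p = 0.974), and 12.3% of its exon bases are shared with IAH1 on the opposite strand. ADAM11, ADAM22 and ADAM23 lack a working catalytic site and act in cell contact. ADAM23 gave 4.33, 3.98 and 4.24 FPKM in shNC and 3.66, 3.08 and 3.89 FPKM in shACAT2, without overlap and with a log2 difference of −0.19 (limma adjusted p = 0.300). ADAM22 and ADAM11 overlapped between groups, with log2 differences of −0.20 and −0.17.

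In the ADAMTS family 1 of 10 genes tested was called. ADAMTS10 (ENSG00000142303, chr19:8580242-8610735, minus strand), which binds fibrillin microfibrils, stood at 2.62, 2.31 and 2.53 FPKM in shNC and at 4.85, 4.17 and 3.54 FPKM in shACAT2. The groups were separate. The mean rose 1.68-fold, from 2.49 ± 0.159 to 4.19 ± 0.655 FPKM (SD, n = 3), with a log2 difference of 0.56 (SE 0.12, limma adjusted p = 0.0427). This call held in 8 of 16 alternatives, and it was lost when any library but shACAT2-3 was left out, at adjusted p of 0.0527 to 0.181 and log2 differences of 0.47 to 0.59.

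The procollagen N-proteinases ADAMTS2, ADAMTS3 and ADAMTS14 did not move one way. ADAMTS2 stood at 3.00, 2.80 and 2.96 FPKM in shNC and at 4.82, 3.92 and 3.74 FPKM in shACAT2, without overlap, and missed the threshold with a log2 difference of 0.39 (SE 0.11, limma adjusted p = 0.0868). ADAMTS3 stood at 3.22, 3.81 and 3.24 FPKM in shNC and at 1.77, 2.97 and 2.70 FPKM in shACAT2, with a log2 difference of −0.36 (SE 0.15, limma adjusted p = 0.215). ADAMTS14 overlapped between groups (log2 difference −0.19). Among the proteoglycanases, ADAMTS1 was 2.65 to 3.07 FPKM in shNC and 3.24 to 3.43 FPKM in shACAT2, and ADAMTS4, ADAMTS9 and ADAMTS20 overlapped with log2 differences of 0.11, 0.18 and −0.15. ADAMTS13, the protease of von Willebrand factor, was 1.72 to 2.12 FPKM in shNC and 1.38 to 1.59 FPKM in shACAT2 (log2 difference −0.21, limma adjusted p = 0.308), and ADAMTS19 differed by −0.04. Over the 4 families, 8 of the 24 genes tested (33.3%) were higher and 3 (12.5%) lower without overlap between the groups, against 16.2% and 14.5% of all genes tested. The 8 were TIMP1, TIMP2, TIMP3, MMP14, ADAM9, ADAMTS1, ADAMTS2 and ADAMTS10, and the 3 were ADAM23, ADAMTS3 and ADAMTS13.

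**Figure D4:**
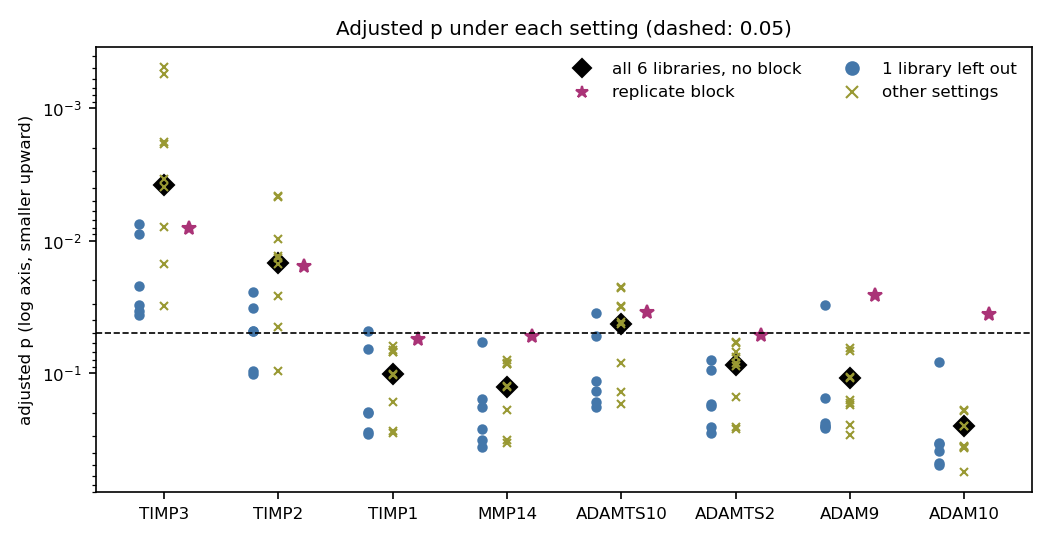
Adjusted p from limma (vertical axis, log scale, smaller values upward) of 8 genes with all 6 libraries, with the replicate block, with 1 library left out and under the other settings, with the dashed line at 0.05. TIMP3 stays above the line in every setting shown, whereas ADAM9 and ADAM10 cross it with the block.

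The 42 genes under 1 FPKM were read as fragments, and 10 of them are named for having the most fragments. Their totals over the 6 libraries were 633 for ADAMTS12, 522 for ADAMTS5, 509 for ADAMTS17, 278 for ADAM8, 277 for MMP24, 265 for ADAMTS7, 120 for ADAMTS15, 111 for MMP25, 105 for ADAM19 and 64 for ADAM32. A wider test, limma-voom on genes with a mean of at least 10 fragments, took in 34 of the 66 genes. It called 3 of them higher (TIMP3, TIMP2 and ADAMTS10) and 1 lower, against 4.30% and 2.91% of its 15996 genes. The gene called lower was ADAM19, a sheddase of neuregulins (ENSG00000135074, chr5:157395534-157575775, minus strand). ADAM19 had 28, 23 and 30 fragments in shNC and 4, 6 and 14 in shACAT2-1, shACAT2-2 and shACAT2-3, without overlap of the groups, and 62 of its exon bases are shared with CYFIP2 on the opposite strand. The log2 difference was −1.81 (SE 0.43, limma-voom adjusted p = 0.0350), and −2.30 (adjusted p = 0.0107) without shACAT2-3, where the background rate alone would give 5.996 fragments. On the log2(FPKM + 1) scale with no filter the same gene differed by −0.19 (limma adjusted p = 0.370), since its FPKM was 0.184 to 0.237 in shNC and 0.0342 to 0.121 in shACAT2. MMP24, a further membrane-type enzyme, had 40, 29 and 39 fragments in shNC and 49, 69 and 51 in shACAT2, with a log2 difference of 0.70 (limma-voom adjusted p = 0.104). It lies inside MMP24OS on the opposite strand and shares 18.1% of its exon bases with it. Of the exon bases of MMP25, 35.2% are shared with the antisense gene MMP25-AS1.

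Several proteases often studied in invasion were at or near 0. MMP1, MMP10 and MMP13, the interstitial collagenase, stromelysin-2 and collagenase-3, had 0 fragments in every library, where 3 fragments would have been 0.0614 to 0.114 FPKM, the upper limit that a count of 0 allows in a library. MMP9, the other gelatinase, had 1, 1 and 3 fragments in shNC and 2, 2 and 7 in shACAT2. It shares 18.4% of its exon bases with the antisense gene SLC12A5-AS1. The 9 MMP genes clustered at chr11:102520508-102955734 (MMP7, MMP20, MMP27, MMP8, MMP10, MMP1, MMP3, MMP12 and MMP13) had 1 fragment in the 3 shNC libraries together, 1 in shACAT2-1 and shACAT2-2 together, and 13 in shACAT2-3. The background rate of shACAT2-3 over their 20.7 kb of exons would give 16.1 fragments. In all, 11 of the 66 genes had fragments in shACAT2-3 alone, and 63 had at least 1 there against 45 to 49 in the other libraries, so no level is read from them.

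**Figure D5:**
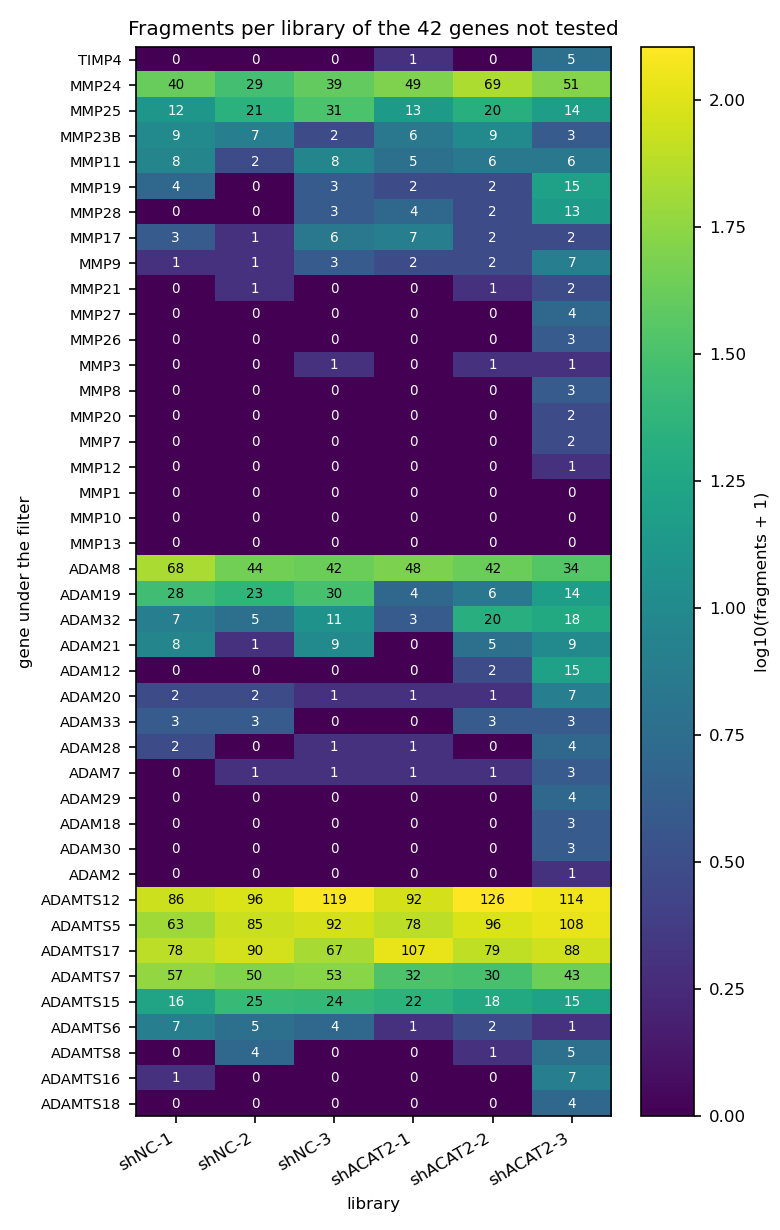
Fragments in each library (columns) of the 42 genes under the filter (rows, by family), with the colour on a log10(fragments + 1) scale and the fragments written in each cell. ADAM19 reads 28, 23 and 30 in shNC against 4, 6 and 14 in shACAT2, and many rows are above 0 in shACAT2-3 alone.

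Genes that act around these proteases were taken from 6 lists of 57 genes, of which 31 were tested, 3 were called higher and 0 lower, against 3.30% and 1.81% of all genes tested, with a median log2 difference of 0.10. The lists were chosen with earlier results of these data known, so their counts are no test of these groups of genes. Of the 12 listed ligands and receptors shed by ADAM10 or ADAM17, 2 of 4 tested were called higher. HBEGF (log2 difference 0.22) and IL6R (0.08) were tested and not called. TGFA, under the filter, had 17, 13 and 19 fragments in shNC and 5, 9 and 5 in shACAT2, without overlap of the groups. The other listed genes under the filter overlapped. CD44, the hyaluronan receptor, rose from 3.42 ± 0.208 to 7.08 ± 0.138 FPKM (SD, n = 3), a log2 difference of 0.87 (SE 0.08, limma adjusted p = 0.0048). The adhesion molecule L1CAM rose from 3.23 ± 0.256 to 8.79 ± 1.31 FPKM, a log2 difference of 1.203 (SE 0.12, limma adjusted p = 0.0054). Of the iRhoms and ADAM10-binding tetraspanins, 1 of 8 tested was called higher. This was RHBDF1, an iRhom that carries ADAM17 to the cell surface, which rose from 3.09 ± 0.326 to 6.70 ± 0.875 FPKM (log2 difference 0.91, limma adjusted p = 0.0107, or 0.0774 without shNC-3). RHBDF2, the other iRhom, went from 5.13 to 3.29 FPKM (log2 difference −0.52, limma adjusted p = 0.0587, or 0.0292 with the block).

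Of the convertases that cut propeptides, 0 of 3 tested were called, of the ADAMTS-like proteins and other metzincins 0 of 5, and of the invadopodium components 0 of 10. Over all genes tested 5.10% were called, so 0 calls in lists this short do not show that they were unchanged. Without overlap, 16.2% of all genes tested were higher and 14.5% lower. Among the invadopodium components, ARPC2, ACTR3, CTTN and NCK1 were higher without overlap. SH3PXD2A (log2 difference −0.37, limma adjusted p = 0.0787) and SH3PXD2B were lower without overlap. Among the metzincins and ADAMTS-like proteins, ADAMTSL3 and ADAMTSL5 were higher without overlap. TLL1 was lower without overlap, at 1.84 FPKM in shNC and 0.968 in shACAT2 (log2 difference −0.53, limma adjusted p = 0.0634). The list of other inhibitors and inducers had 1 of 7 genes tested, BSG, which was not called. RECK, a membrane-anchored inhibitor of MMPs, had 0 fragments in 5 libraries and 6 in shACAT2-3. With the replicate block 6 of the 31 were called higher and 1 lower, against 7.67% and 4.81% of all genes, the additions being ADAMTSL5, ARPC2, ACTR3 and RHBDF2.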

How the data were processed

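Total RNA of HGC-27 cells was sequenced in 3 shNC and 3 shACAT2 libraries, grouped by the sample labels. The authors deposited FPKM values per gene. The submitters' processing notes name HISAT2 2.0.5, featureCounts 1.5.0-p3, DESeq2 1.20.0 and build hg38, and coordinates and exon lengths of all 66 genes equal GENCODE 29. The strand setting is not given in the sources used here. Fragments were recovered from FPKM and gene length, and 100% of the values were whole within 0.001 fragments. They count reads without molecular identifiers, so limits from counts cover counting error only.

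Genes averaging 1 FPKM or more among the shNC or the shACAT2 libraries were tested with limma 3.58.1 (R 4.3.3, with trend) on log2(FPKM + 1), with Benjamini-Hochberg adjustment, and fold changes on this scale understate changes of low genes. The script was checked on simulated data. Python 3.11.15, numpy 2.4.6, pandas 2.3.3 and matplotlib 3.10.9 did the rest. The genes, the gene lists and the tests were chosen with earlier results of these data known. Named were the genes called, all others tested, the 10 untested with most fragments, the called genes of the lists, ACAT2 and markers. RHBDF2, COL1A2, COL3A1, VIM, BSG, RECK, TIMP4 and MMP9 were named after their values were seen. So were CTTN, NCK1, SH3PXD2A, SH3PXD2B, TLL1, ADAMTSL3, HBEGF, IL6R, TGFA, the 3 genes at 0 in every library, the MMP cluster and the genes called with the block alone.

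The study excepts its high-throughput (HTS) assays from the experiments it repeated independently, and no source says that replicates came from separate cultures. The p-values therefore measure the spread between these libraries, which may be technical. The chi-square per gene was 1.75 between shNC-2 and shNC-3 and 13.7 to 52.3 between other replicates. This is above sampling noise, and they were kept as 2 libraries. Deviations from group means correlated at 0.445, 0.126 and 0.171 for numbers 1, 2 and 3, all above 0.1. For the block fit alone, the numbers of the labels were taken to pair libraries. However, shNC-2 and shACAT2-3 (0.198) and shNC-3 and shACAT2-2 (0.141) also correlated. Because deviations sum to 0 within each group, the values among numbers 2 and 3 together follow from number 1. The pairing of numbers 2 and 3 is therefore an assumption of the block fit. Alternatives were other scalings, filters and pseudocounts, the block, shNC-2 and shNC-3 averaged, limma-voom on fragments, a fold threshold and each library left out. Limma-voom without shACAT2-3 for ADAM19 was chosen after seeing the data. Promoters came from RefSeq (GRCh38.p14), with no exon bases of the 3 genes in the windows.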

Additional observations from a re-analysis of the deposited data

How the results depend on the processing

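Of the 24 genes tested, 17 kept their direction in all 16 alternatives and 7 changed it in at least 1. With no filter, with the filters on the mean over all libraries and with the block, the log2 difference itself stays the same. The direction could not change in those alternatives. The count of 3 genes higher became 5 with the replicate block, 1 when shNC-2 and shNC-3 were averaged, and 1 under a log2 difference above 1 and an unadjusted limma p under 0.05. It was 1 to 4 with a library left out, with 1 both without shNC-2 and without shNC-3. The limma-voom fit of the genes with at least 10 fragments on average, without shACAT2-3, was chosen after seeing the data. Of 33 family genes in it, 6 were called higher (TIMP1, TIMP2, TIMP3, MMP14, ADAMTS2 and ADAMTS10) and 1 lower (ADAM19). Over all 15956 genes of that fit, 982 were called higher and 619 lower. The count of 0 genes lower became 1 (ADAM19) in limma-voom on genes with a mean of at least 10 fragments, and was 0 with each library left out of the test on log2(FPKM + 1). Over all genes, 706 calls became 209 with no filter, 401 at 0.1 FPKM, 1727 with the block, 83 with the average, 1153 in the wider limma-voom test, 207 by fold threshold and 63 to 862 with a library left out (63 without shNC-3, 101 without shNC-2, 129 without shACAT2-2, 135 without shNC-1). The replicate block, which assumes a pairing of library numbers that is not settled, added ADAM9 and ADAM10 and changed no other call among the 24.

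ADAMTS10 was lost with no filter (adjusted p = 0.139), at 0.1 FPKM (0.0838) and with the average (0.173), all limma, and TIMP2 with the average (0.0965). These filters test more genes and the average leaves fewer samples, but what caused the losses was not tested. With 1 library left out, TIMP2 stayed called without shNC-1 (limma adjusted p = 0.0483), shACAT2-1 (0.0247), shACAT2-2 (0.0480) or shACAT2-3 (0.0323). It was lost without shNC-2 (0.0963) or shNC-3 (0.101). ADAM9 was also called without shACAT2-1 (log2 difference 0.80, limma adjusted p = 0.0306).

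Log2 differences that reversed were near 0. ADAM17 gave 0.0029 with the average. With a library left out the ranges were −0.33 to 0.038 for ADAM11, −0.023 to 0.35 for ADAM15, −0.085 to 0.12 for ADAM17, −0.093 to 0.0086 for ADAMTS19, −0.28 to 0.088 for ADAMTS20, −0.083 to 0.32 for MMP16 and −0.11 to 0.073 for MMP2. The cause was not tested. Upper-quartile scaling and scaling to the total moved the median of all genes from 0.016 to −0.032 and −0.027. For the genes under the filter, the few fragments and the background of shACAT2-3 limit what can be read.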
